A study of Mus musculus with 6 samples.

Results

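The cytosolic ribosomal protein genes were taken by name from RNA-seq of endothelial cells (EC) of the mouse lung and were followed from infant to young adult animals. Members were the symbols that begin with Rpl or Rps and a digit, together with Rpsa, Rplp0, Rplp1 and Rplp2. Rps6k kinases and symbols marked -ps as pseudogenes were not counted, and a gene with several transcript entries was represented by the most abundant. The rule found 84 members among 12623 genes. Of these, 77 encode structural proteins of the ribosome, 46 of the large 60S subunit and 31 of the small 40S subunit. The other 7 were the paralogs Rpl22l1, Rps27l, Rpl36al and Rpl7l1, the pseudogene transcript Rps4y2 (Rps4l in RefSeq), the predicted transcript Rps12l2, and Rps19bp1, which binds a ribosomal protein but is not one. Fau and Gnb2l1 (Rack1) are ribosomal proteins that the rule does not reach, and they are given separately.

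The 6 libraries came from C57BL/6N mice, for which no transgene or treatment is named, 3 from infant animals in the second postnatal week and 3 from young adult animals no older than a few months. According to the methods of the study the mice were female. By the same methods, living CD31+CD34+ cells without PTPRC, LYVE1, LY76 and PDPN were sorted from digested lungs. The libraries thus hold a mixture of cells sorted as vascular EC, and they also held marker mRNAs of other cell types, given below. How many animals went into a library is not given in the sources used here. The 3 libraries of an age are numbered by title and were treated as independent biological replicates. Values are RPKM, reads per kilobase of transcript, scaled to the mapped reads of the library, and the read depth behind them is unknown. RPKM is the scale of every level below, and a fold change is the difference of mean log2(RPKM + 1), young adult minus infant, tested with limma with Benjamini-Hochberg adjustment over 12458 genes.

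The cytosolic ribosome is assembled in the nucleolus from ribosomal RNA and one copy of nearly every structural protein, so its protein genes are known for being expressed at high levels and in step with each other. In growing cells their mRNAs are among the most abundant. Most begin with a cytosine followed by a run of pyrimidines, the terminal oligopyrimidine (TOP) element, through which mTOR signalling controls their translation. Lung EC leave the cell cycle between infancy and adulthood, and the comparison asks whether the mRNAs of this growth-linked family differ between the 2 ages.

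The start of the transcript is the sequence feature for which the family is known. It is shown here for members that the results turn on and for some members with long runs. Each window holds 10 bases before and 20 bases from the annotated RefSeq start in GRCm38.p6 (the coordinates of mm10), read on the strand of the gene, so it covers the end of the promoter and the first bases of the first exon. Capitals mark the longest run of pyrimidines (C or T) in the window. Rpl13a, Rpl15, Rps10 and Rpl7a carry long runs, and many other structural members have shorter ones. Rps12 and Rps15a are among the least abundant structural members, and the remaining windows belong to the paralog pairs and to Rps19bp1.
Rpl13a (chr7:45128726-45128755, minus strand): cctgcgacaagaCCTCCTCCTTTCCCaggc
Rpl15 (chr14:18270967-18270996, minus strand): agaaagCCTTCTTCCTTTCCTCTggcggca
Rps10 (chr17:27635225-27635254, minus strand): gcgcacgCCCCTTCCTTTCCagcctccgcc
Rpl7a (chr2:26910797-26910826, plus strand): CTCTTCTTTCTTTCTCCagcagccgagcaa
Rps12 (chr10:23787190-23787219, minus strand): tcatgcggccaccgccggCCTTTTCCCCTg
Rps15a (chr7:118116128-118116157, minus strand): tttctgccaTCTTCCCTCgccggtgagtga
Rpl22l1 (chr3:28805498-28805527, plus strand): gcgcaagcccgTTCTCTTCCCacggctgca
Rpl22 (chr4:152324426-152324455, plus strand): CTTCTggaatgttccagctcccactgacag
Rps27 (chr3:90213629-90213658, minus strand): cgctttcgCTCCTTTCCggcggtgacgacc
Rps27l (chr9:66946076-66946105, plus strand): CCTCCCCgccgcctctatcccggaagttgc
Rpl36a (chrX:134585644-134585673, plus strand): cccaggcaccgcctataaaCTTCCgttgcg
Rpl36al (chr12:69184048-69184077, minus strand): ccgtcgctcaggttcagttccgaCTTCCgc
Rpl7l1 (chr17:46782637-46782666, minus strand): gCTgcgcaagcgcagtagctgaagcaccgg
Rps19bp1 (chr15:80264287-80264316, minus strand): cggaagtagCTCgccgcgtgtgggcggggc

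The longest run in these windows measured 14 bases in Rpl13a, 17 in Rpl15, 13 in Rps10 and 17 in Rpl7a. It measured 10 bases in Rpl22l1 and 5 in the window of its partner Rpl22, 9 bases in Rps27 and 7 in Rps27l, and 5 bases in both Rpl36a and Rpl36al. The windows of Rpl7l1 and Rps19bp1 held runs of 2 and 3 bases. Rpl22 and Rps27l have a further annotated start that is not shown.

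RefSeq promoters of 300 bases, 250 before and 50 from the start, were matched to 62 members, 57 of them structural. A run of at least 8 pyrimidines within 20 bases of an annotated start was present in 28 of the 57 structural members (49.1%), against 19.1% of 8964 other tested genes and 18.4% of all 27025 genes with a promoter. The letters CTTTCC, read on the sense strand within 50 bases of the start, occurred in 18 members (31.6%), against 5.09% of the other tested genes and 5.43% of all genes. A CTTTCC close to the start can lie inside such a run, so these counts share sequence. CCGGAAG, the core that ETS factors recognise, occurred on either strand of the 300 bases in 24 members (42.1%), against 20.1% of the other tested genes and 9.93% of all genes. It was also searched as its reverse complement, which can share letters with a pyrimidine run. TATAAA was found in the 50 bases before the start in 0 of the 57, against 1.92% of the other tested genes and 3.15% of all genes. These matches describe the letters in the windows and not occupied sites. The 28 members with a run of at least 8 had a median log2 fold change of -0.20 and a median mean level of 66.2 RPKM, and the 29 without one had -0.18 and 55.4 RPKM.

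The structural members spanned a wide range of levels. Their mean RPKM over the 6 libraries had a median of 66.1, with quartiles of 42.1 and 114, against a median of 6.25 over all genes tested. The highest member stood 61.0 times above the lowest, although the proteins are needed in nearly equal numbers, and RPKM already accounts for transcript length. In all, 24 structural members exceeded 100 RPKM and 6 lay under 25 RPKM.

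Rpl32 and Rps14, a protein of each subunit, led the list with means of 449 and 434 RPKM. Rpl4 reached 259 and Rps6 256 RPKM. Rps6 is the ribosomal protein that S6 kinases phosphorylate after growth signals, and its level rests on a predicted transcript, since the curated transcript of the same gene stood at 107 RPKM. The low end was held by Rps12 at 20.8, Rpl12 at 18.7, Rpl31 at 14.9 and Rps15a at 7.35 RPKM, and among the other members by Rps19bp1 at 4.38 and Rps12l2 at 1.17 RPKM. The order at the top was not resolved everywhere: Rps14 ranged from 376 to 573 RPKM over the libraries and Rpl32 from 360 to 623, and Rpl4 and Rps6 likewise lay within each other's range. Rps15a, by contrast, reached at most 10.1 RPKM, below the lowest library of every other structural member.

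**Figure D1:**
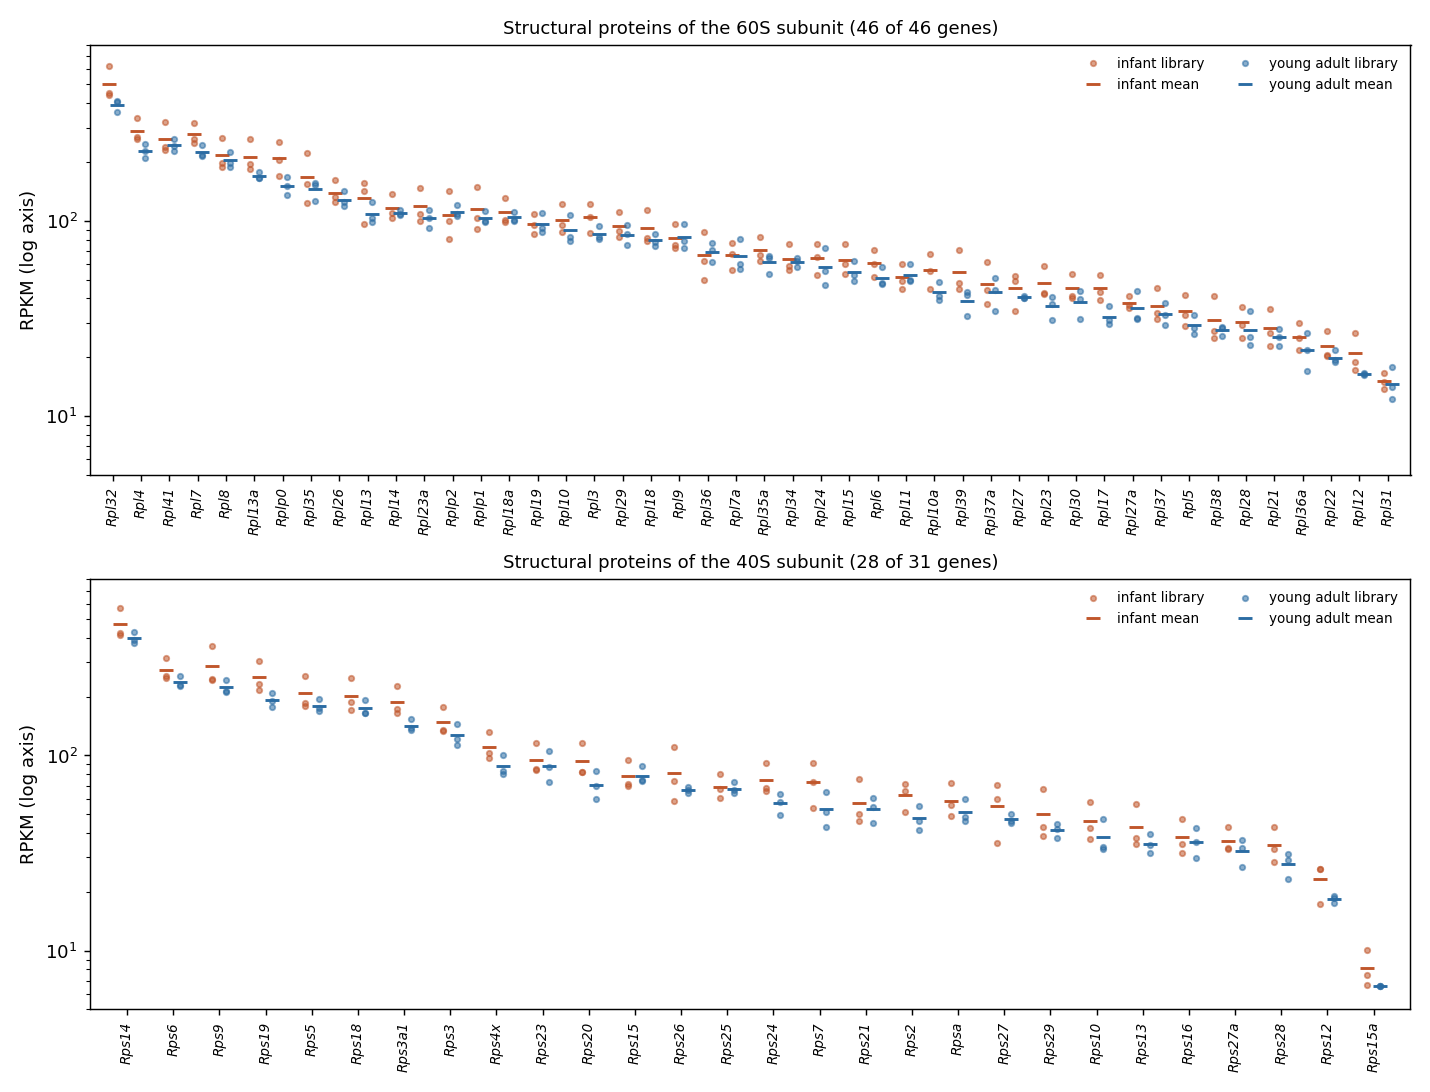
RPKM of the 46 structural members of the 60S subunit and 28 of the 31 of the 40S subunit on log axes, ordered by mean level. Each point is 1 library and each bar the mean of the 3 libraries of an age; most infant bars lie slightly above the young adult bars, and the points of the ages overlap for most genes.

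Several members share nearly their whole sequence with processed pseudogenes, and some of these had values of their own in the deposited table. RefSeq lists 321 numbered pseudogenes whose symbols begin with Rpl or Rps, and 62 of the 77 structural members have at least 1. The table held values for 10 of them, and 5 stood above the gene they derive from. Rps15a-ps5 was the clearest, at 23.2, 20.2 and 30.8 RPKM in infant replicates 1, 2 and 3 and at 20.3, 17.4 and 20.4 RPKM in young adult replicates 1, 2 and 3. In the same order Rps15a itself, a 40S protein, stood at 7.5, 6.7 and 10.1 RPKM and at 6.6, 6.6 and 6.6 RPKM. The pseudogene was higher than the parent in each of the 6 libraries, by a ratio of means of 3.0, and the transcripts were 98.7% identical over 393 aligned bases.

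Rpl31-ps12 averaged 28.3 RPKM beside 14.9 for Rpl31, a protein at the exit of the peptide tunnel, with 98.9% identity over 375 bases. Rpl34-ps1 averaged 81.5 RPKM beside 62.6 for Rpl34, Rps15a-ps6 averaged 9.50 RPKM beside 7.35 for Rps15a, and Rps13-ps4 averaged 43.1 RPKM beside 39.2 for Rps13. The other 5 lay below their parents, among them Rps19-ps3 at 1.45 RPKM beside 222 RPKM for Rps19. How reads that match several of these loci were shared out is not given in the sources used here, so the level of a member with such a copy is uncertain, and Rps15a and Rpl31, at the bottom of the family, are 2 of the members with a more abundant pseudogene. Across the structural members the number of numbered pseudogenes and the mean RPKM had a Spearman rho of -0.24, a description over 77 genes.

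**Figure D2:**
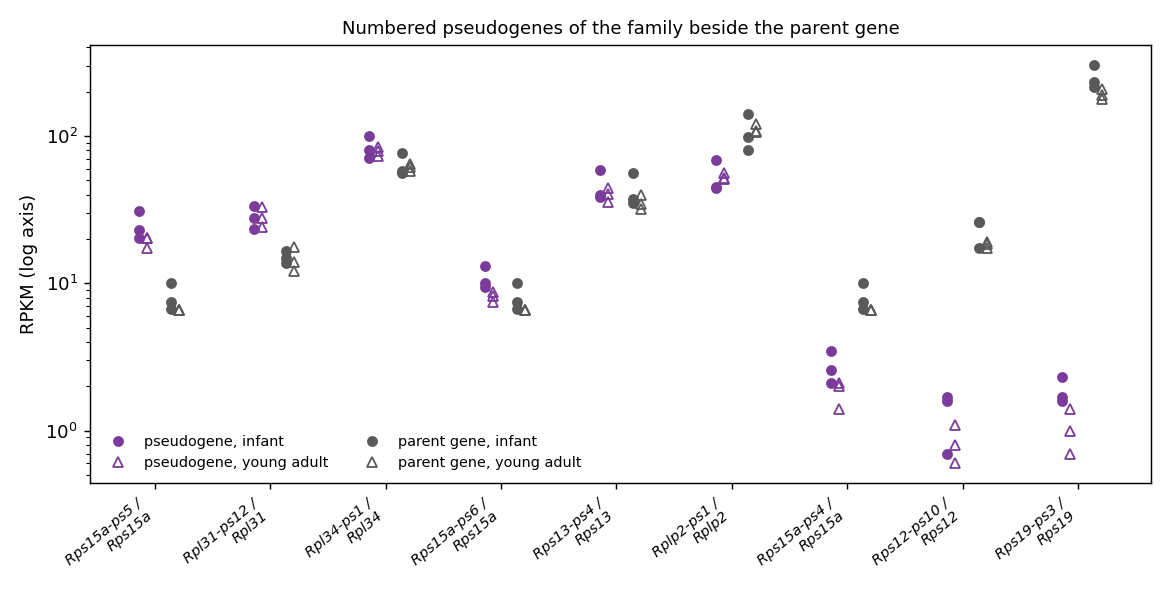
RPKM on a log axis of 9 of the 10 numbered pseudogenes in the table (purple) beside the parent gene (grey), with infant libraries as filled circles and young adult libraries as open triangles. The 5 pairs on the left have the pseudogene above its parent on average, led by Rps15a-ps5 with a ratio of 3.0, and the 4 on the right have it below.

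Between the ages the family hardly separated. Of the 84 members 3 passed the test at an adjusted p under 0.05 (limma, Benjamini-Hochberg), 3.57%, against 25.5% of all genes tested. Rpl22l1 and Rpl17 fell, against a background of 16.2% for genes lower in the young adult, and Rps19bp1 rose, against a background of 9.26%. By limma 0 members passed with a change that also exceeded the fold threshold of the study, where 11.4% of all genes did, 3.33% higher and 8.1% lower. At the same time 9 members had an unadjusted p under 0.05, 8 of them lower and 1 higher, against 40.4% of all genes. The libraries of the 2 ages did not overlap in 16 members, 15 lower and 1 higher in the young adult (19% of members), against 43.4% of all genes, 27.1% lower and 16.4% higher.

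The members nevertheless leaned to one side. The log2 fold change was below 0 in 72 of 84 members, against 58.6% of all genes, and its median was -0.18 over the members and -0.07 over all genes. The 31 proteins of the 40S subunit had a median of -0.24, and 29 of them were below 0. The 46 proteins of the 60S subunit had a median of -0.16, and 41 were below 0. The range over the structural members ran from -0.47 to 0.10.

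That lean rested on infant replicate 3. Without it the median of the members was -0.03, against -0.07 over all genes, and 50 of 84 members were below 0. In that fit 1 member passed in the lower direction, beside 7% of all genes. Without infant replicate 2 the median was -0.28 and 10 members passed in that direction, beside 21.5% of all genes. The 77 structural members had a median level of 66.7, 59.6 and 87.7 RPKM in infant replicates 1, 2 and 3 against 61.9, 56.8 and 66.2 RPKM in the young adult libraries in the same order. Infant replicate 3 was the highest of the 3 infant libraries in all 77 structural members, and the highest of all 6 libraries in 72. Infant replicate 2 was the lowest of the infant libraries in 50. The order by replicate number was alike among the young adult libraries, where replicate 3 was the highest in 71 and replicate 2 the lowest in 51.

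**Figure D3:**
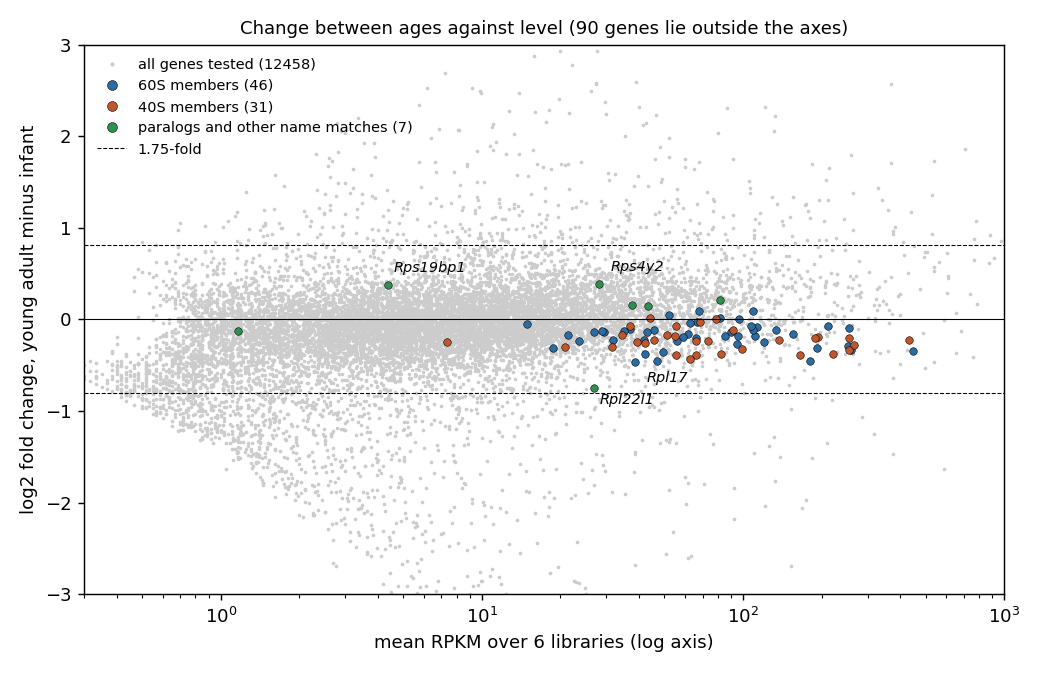
Log2 fold change between the ages (young adult minus infant) against the mean RPKM over 6 libraries on a log axis, with all genes tested in grey (90 lie outside the axes), the 46 members of the 60S and 31 of the 40S subunit and the 7 other members in colour. The members form a narrow band just under 0 inside the dashed lines at the fold threshold of the study, with Rpl22l1 the lowest at -0.75 and Rps4y2 the highest at 0.39.

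As a whole the family summed to 7747, 7476 and 10351 RPKM in the infant libraries and to 7053, 6824 and 8034 RPKM in the young adult libraries. Its share of all RPKM was 2.82, 2.65 and 3.06% in infant replicates 1, 2 and 3 and 2.64, 2.47 and 2.72% in young adult replicates 1, 2 and 3. The means were 2.84% ± 0.20 and 2.61% ± 0.13 (SD, n = 3 each), and the groups overlapped. Infant replicate 3 was also the library with the most globin mRNA, 23.5% of all RPKM, beside 11.03 and 3.41% in infant replicates 1 and 2 and 0.307 to 0.487% in the young adult libraries. All 5 globin genes fell, beside 16.2% of all genes. With the globins left out of the total the family made up 3.17, 2.75 and 3.996% of the infant libraries and 2.65, 2.48 and 2.73% of the young adult libraries, 3.30% ± 0.64 and 2.62% ± 0.13, with no overlap between the ages. In bulk RNA, fewer cells of a type and less RNA per cell cannot be told apart.

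Markers of other cells moved with age as well. Of all genes tested 16.2% fell and 9.26% rose by the test used for these lists (limma, adjusted p under 0.05). The erythroid list fell in 4 of 4 tested genes, with summed levels of 35.7 to 167 RPKM in the infant libraries, against 2.2 to 4.8 RPKM in the young adult ones, and Slc4a1 stood at 0 in young adult replicate 1. Of the fibroblast markers 11 of 12 fell, from sums of 380 to 1362 RPKM to sums of 14.4 to 29.3 RPKM. Of the mural markers 10 of 12 fell, from 145 to 303 RPKM to 89.4 to 103 RPKM, with Cspg4 at 0 in young adult replicate 1. The leukocyte list fell in 5 of 11 genes, and its sums were 504 to 746 RPKM in the infant libraries, against 286 to 967 RPKM in the young adult ones, with S100a8 at 0 in young adult replicates 1 and 2. The epithelial list fell in 4 of 11 genes and rose in 1, with sums of 6501 to 11359 and 1838 to 8379 RPKM and Epcam at 0 in young adult replicate 1. The endothelial markers summed to 3782 to 5517 RPKM in the infant libraries, against 5855 to 6406 RPKM in the young adult ones, with 2 of 15 rising and Cd34 falling, and none of them stood at 0. The part of these cells in the levels of the ribosomal protein genes was not tested.

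The members moved together from library to library. Over the 6 libraries the log2 level of a structural member correlated with the median of the other structural members at a median r of 0.905. The correlation was over 0.9 in 42 of the 77 (54.5%), against 133 of 12374 genes outside the family (1.07%). These correlations describe 6 points that share the scaling of each library, and members enter each other's reference. The median standard deviation within an age was 0.22 on the log2 scale for the structural members, above the 0.16 of all genes, and it was 0.10 after the family median of each library had been subtracted.

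The nonmember genes with the pattern most like the family median were Fkbp7 (r = 0.994), Ntmt1 (r = 0.990) and Gm4581 (r = 0.988) over the same 6 libraries. The members with the least likeness were Rps19bp1 (r = -0.27), Rps27l (r = -0.08), Rps4y2 (r = 0.05) and Rpl7l1 (r = 0.15), none of which is a structural member. Among the structural members Rps12 was the least alike (r = 0.36), followed by Rpl27 (r = 0.44, a gene named after its values were seen) and Rps27 (r = 0.51). Rps12 stood at 17.3, 26.2 and 26.3 RPKM in infant replicates 1, 2 and 3 and at 18.5, 19.0 and 17.5 RPKM in young adult replicates 1, 2 and 3. Rps27 stood at 35.7, 59.6 and 70.7 RPKM and at 45.1, 46.1 and 50.4 RPKM in the same order. In both genes infant replicate 1 was the lowest of all 6 libraries, which was not the position of that library in the family as a whole.

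**Figure D4:**
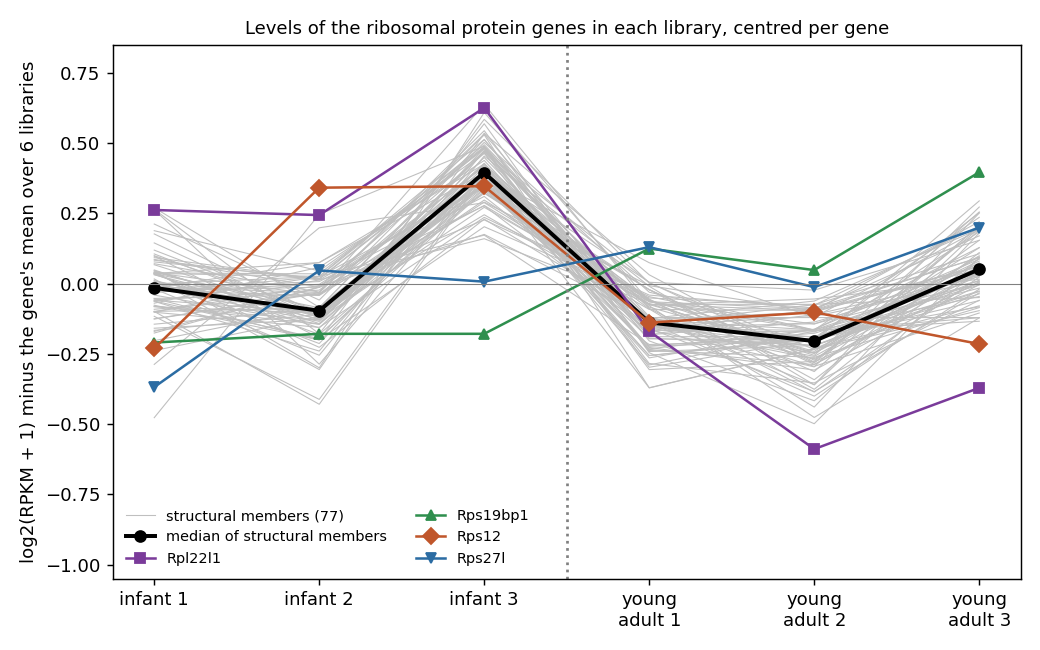
Log2(RPKM + 1) of each gene minus its own mean over the 6 libraries, with the 77 structural members as grey lines, their median in black and 4 members in colour. Infant replicate 3 is the peak of the median, young adult replicate 2 its lowest point, and Rpl22l1 lies below the median in young adult replicates 2 and 3 while Rps19bp1 stays flat among the infant libraries.

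Rpl22l1 showed the largest change of the family. It encodes a paralog of the 60S protein Rpl22, and Rpl22 is known to hold back the Rpl22l1 mRNA. The gene lies at chr3:28805508-28807424. Rpl22l1 stood at 31.1, 30.7 and 40.3 RPKM in infant replicates 1, 2 and 3 and at 22.8, 16.8 and 19.7 RPKM in young adult replicates 1, 2 and 3. All young adult libraries lay below all infant libraries. The means were 34.0 ± 5.43 and 19.8 ± 3.001 RPKM (SD, n = 3 each), a ratio of 0.581, and the log2 fold change was -0.75 with a standard error of 0.15 (limma adjusted p = 0.0125). Leaving out young adult replicate 2 brought the adjusted p to 0.055 with limma, and it passed without each of the other libraries. After the family medians of the libraries had been made equal, the log2 fold change was -0.56 and the adjusted p 0.0841.

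Rpl22 itself stood at 20.4, 20.6 and 27.4 RPKM in the infant libraries and at 19.3, 18.8 and 21.7 RPKM in the young adult ones, and these overlapped (log2 fold change -0.17, limma adjusted p = 0.36). The log2 ratio of Rpl22l1 to Rpl22 within a library, from which a shift shared by the whole library drops out, was 0.58, 0.55 and 0.54 in infant replicates 1, 2 and 3. In young adult replicates 1, 2 and 3 it was 0.23, -0.15 and -0.13. The infant ratios averaged 0.56 ± 0.02 and the young adult ratios -0.02 ± 0.22 (SD, n = 3 each). They differed by -0.58 without overlap, and the exact two-sided permutation p was 0.1, the smallest that 3 against 3 libraries can give. The young adult libraries thus held about as much Rpl22l1 as Rpl22 mRNA per length, and the infant libraries held more of Rpl22l1. Which cells of the sorted mixture carried the difference was not tested.

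The other 4 paralog ratios had differences of the opposite sign. Rpl36al and Rpl36a encode nearly the same 60S protein. Their log2 ratio was 0.48, 0.82 and 0.68 in the infant and 0.99, 1.23 and 0.91 in the young adult libraries, a difference of 0.38 without overlap (exact permutation p = 0.1). Rpl7l1, a nucleolar relative of the 60S protein Rpl7, lay well below it, at log2 ratios of -2.92, -2.83 and -3.02 in infant and -2.39, -2.48 and -2.56 in young adult libraries, a difference of 0.45 without overlap (exact permutation p = 0.1). Rps27l, a p53-induced relative of the 40S protein Rps27, exceeded it in every library, at log2 ratios of 0.79, 0.48 and 0.20 in infant and 0.96, 0.78 and 0.87 in young adult libraries. These overlapped, with a difference of 0.38 (exact permutation p = 0.2).

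Rps4y2 against the X-linked 40S gene Rps4x gave log2 ratios of -2.02, -2.32 and -2.20 in infant and -2.07, -1.06 and -1.26 in young adult libraries, with overlap and a difference of 0.71 (exact permutation p = 0.2). Young adult replicate 1 held the infant level while replicates 2 and 3 stood above it. Adjusted over the 5 pairs with the Benjamini-Hochberg method the exact p-values were 0.167 for the 3 pairs without overlap and 0.2 for the others, so no pair could pass 0.05 in this design. The aligned parts of the transcripts were 74.2% identical in Rpl22l1 and Rpl22, 76.4% in Rps27l and Rps27, 83.1% in Rpl36al and Rpl36a, 62.6% in Rpl7l1 and Rpl7 and 77.6% in Rps4y2 and Rps4x.

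As single genes, none of these 4 other paralogs passed the test. Rps27l stood at 62.3, 83.4 and 81.1 RPKM in the infant libraries, against 88.4, 80.0 and 92.8 RPKM in the young adult ones (log2 fold change 0.21, limma adjusted p = 0.292). Rpl36al averaged 40.9 and 45.3 RPKM and Rpl7l1 35.6 and 39.6 RPKM in the infant and young adult libraries. Rps4y2 had 23.1, 19.9 and 27.9 RPKM in the infant libraries, against 19.0, 37.8 and 41.4 RPKM in the young adult ones (log2 fold change 0.39, limma adjusted p = 0.325). Without young adult replicate 1 it passed the test. All 4 had log2 fold changes above 0 while 70 of the 77 structural members were below 0.

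**Figure D5:**
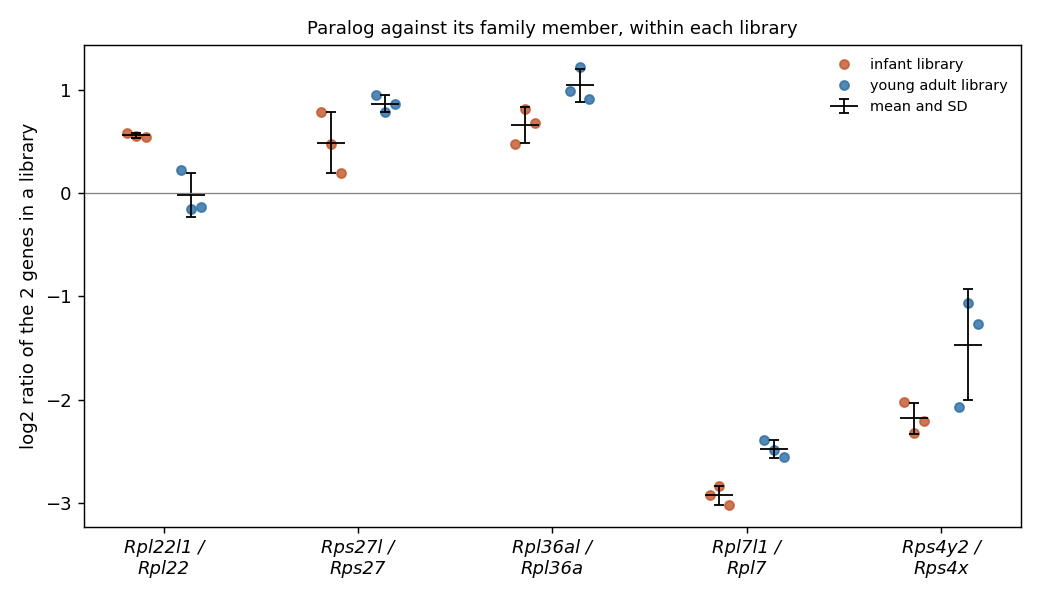
Log2 ratio of each paralog to its family member within a library, with 1 point for each library, the 3 infant libraries on the left of each pair and the 3 young adult libraries on the right, and black bars for the mean and SD. Rpl22l1 to Rpl22 averages 0.56 in infant and -0.02 in young adult libraries, and the other 4 pairs have higher means in the young adult.

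Rps19bp1 was the member that rose. Its product, also called AROS, binds Rps19 and activates the deacetylase SIRT1. The gene stood at 3.6, 3.7 and 3.7 RPKM in infant replicates 1, 2 and 3 and at 4.8, 4.5 and 6.0 RPKM in young adult replicates 1, 2 and 3, without overlap. The log2 fold change was 0.38 with a standard error of 0.12 (limma adjusted p = 0.049), and the call was lost whenever any 1 library was left out, with adjusted p-values from 0.0629 to 0.127. At these low levels the pseudocount of 1 makes the fold change smaller than the ratio of means, 1.39.

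Rpl17 sits at the exit of the peptide tunnel of the 60S subunit, where the new protein leaves the ribosome, and was the only one of the 7 listed exit proteins to pass the test, beside 16.2% of all genes that fell. It stood at 43.4, 39.2 and 52.8 RPKM in infant replicates 1, 2 and 3 and at 31.0, 29.5 and 36.4 RPKM in young adult replicates 1, 2 and 3. All young adult libraries were below all infant libraries, and the log2 fold change was -0.47 with a standard error of 0.14 (limma adjusted p = 0.0429). When single libraries were left out, Rpl17 passed only without infant replicate 2, with adjusted p-values of 0.0531 to 0.148 in the others. Its neighbour Rpl39, a very small protein that lines the tunnel, stood at 47.8, 44.5 and 71.3 RPKM and at 43.0, 32.4 and 41.7 RPKM, also without overlap (log2 fold change -0.45, limma adjusted p = 0.123). Rpl19, Rpl23a, Rpl26, Rpl31 and Rpl35 had log2 fold changes of 0.01, -0.18, -0.11, -0.05 and -0.16.

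The P stalk recruits the translation factors that drive elongation. Its base, Rplp0, stood at 204, 169 and 255 RPKM in the infant libraries and at 136, 150 and 167 RPKM in the young adult libraries, without overlap, with a log2 fold change of -0.45 (limma adjusted p = 0.0891). The tip proteins Rplp1 and Rplp2 had log2 fold changes of -0.11 and 0.09, and both overlapped between the ages. Rplp1 stood at 103, 91.0 and 150 RPKM in the infant libraries, against 98.4, 100 and 112 RPKM in the young adult ones. Rpl12, which binds beside the stalk, had 18.9, 17.3 and 26.7 RPKM in the infant libraries, against 16.4, 16.3 and 16.7 RPKM in the young adult ones, without overlap (log2 fold change -0.31, limma adjusted p = 0.176). By limma 0 of these 4 genes passed, and 1 had an unadjusted p under 0.05, beside 25.5% and 40.4% of all genes.

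Rpl5 and Rpl11 bind the smallest ribosomal RNA and, when ribosome assembly is disturbed, the p53 regulator Mdm2. Rpl5 stood at 33.1, 29 and 41.8 RPKM in the infant libraries, against 28.4, 26.2 and 33.0 RPKM in the young adult ones (log2 fold change -0.23), and Rpl11 at 49.1, 45.0 and 59.8 RPKM and 50, 49.1 and 59.9 RPKM (log2 fold change 0.05). Both overlapped between the ages. A list of 10 of the genes mutated in Diamond-Blackfan anaemia, a failure of red cell formation, includes both of them with Rpl26, Rpl35a, Rps7, Rps10, Rps19, Rps24 and Rps26. By limma 0 of the 10 passed and 1 had an unadjusted p under 0.05, beside 25.5% and 40.4% of all genes. Their median log2 fold change was -0.23. Rps19, the gene most often affected in that disease, stood at 232, 217 and 306 RPKM in the infant libraries, against 178, 190 and 209 RPKM in the young adult ones, without overlap (log2 fold change -0.37, limma adjusted p = 0.127). Rps24 did not overlap either, with 68.4, 65.6 and 91.0 RPKM in the infant libraries, against 57.9, 49.4 and 63.3 RPKM in the young adult ones (limma adjusted p = 0.106).

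Where the mRNA enters and is decoded on the 40S subunit, Rps2, Rps3, Rps15 and Rps23 had log2 fold changes of -0.38, -0.23, 0.01 and -0.11, and all 4 overlapped between the ages. Rpl10a, Rpl13a, Rpl38 and Rps25, which are known for roles in the translation of particular mRNAs, had log2 fold changes of -0.36, -0.31, -0.14 and -0.02. Of these, Rpl13a did not overlap, with 195, 184 and 262 RPKM in the infant libraries, against 166, 166 and 179 RPKM in the young adult ones (limma adjusted p = 0.181). Rps6, the target of S6 kinases, had 251, 255 and 315 RPKM in the infant libraries, against 228, 230 and 254 RPKM in the young adult ones (log2 fold change -0.20, limma adjusted p = 0.324). Rps27a, made as a fusion to ubiquitin, had a log2 fold change of -0.17.

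The balance of the subunits was close in all libraries. The log2 ratio of summed 60S to summed 40S RPKM was 0.42, 0.34 and 0.35 in infant replicates 1, 2 and 3 and 0.44, 0.41 and 0.42 in young adult replicates 1, 2 and 3. The means were 0.37 ± 0.04 and 0.42 ± 0.01 (SD, n = 3 each), and infant replicate 1 lay within the young adult range.

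Of the ribosomal proteins outside the name rule, Fau, the 40S protein made as a fusion to a ubiquitin-like domain, stood at 54.6, 49.6 and 64.7 RPKM in the infant libraries, against 54.0, 47.9 and 65.8 RPKM in the young adult ones. Gnb2l1, the scaffold Rack1 on the head of the 40S subunit, stood at 134, 127 and 170 RPKM and 116, 117 and 138 RPKM. Both overlapped between the ages and had log2 fold changes of -0.01 and -0.20, and infant replicate 3 was the highest infant library in each.

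The other genes of the same machinery were read from lists. Of 19 elongation factors and other mRNAs with a TOP element, 2 fell and 1 rose, beside 16.2% and 9.26% of all genes, with a median log2 fold change of -0.30. Pabpc1, which binds poly(A) tails, stood at 38.4, 30.3 and 39.5 RPKM in the infant libraries, against 18.4, 15.2 and 19.8 RPKM in the young adult ones, a log2 fold change of -0.98 (limma adjusted p = 0.00431) and past the fold threshold. The initiation factors of a separate list of 32 genes had a median of 0.02, with 1 rising and 1 falling, beside the same shares of all genes.

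Ribosome biogenesis factors, which process ribosomal RNA and assemble the subunits, leaned the other way. Of 55 factors 9 rose and 1 fell, against 9.26% and 16.2% of all genes. A log2 fold change above 0 was found in 38, against 5163 of 12458 genes, and the median was 0.14, against -0.07 over all genes. Sbds, which releases the factor that keeps new 60S subunits inactive, stood at 61.8, 100.5 and 71.5 RPKM in the infant libraries, against 142.5, 142.2 and 141.3 RPKM in the young adult ones (log2 fold change 0.89, limma adjusted p = 0.0125) and was past the fold threshold. Of 23 genes in the growth control of ribosome synthesis 2 fell, beside 16.2% of all genes. Myc, the transcription factor that drives ribosome production, stood at 5.5, 3.6 and 5.0 RPKM in the infant libraries, against 1.8, 1.3 and 1.9 RPKM in the young adult ones (log2 fold change -1.09, limma adjusted p = 0.00471), without overlap. Myc was thus lower by more than the fold threshold, which by limma 0 of the 84 ribosomal protein genes passed.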

How the data were processed

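RNA of sorted lung EC (3 infant and 3 young adult libraries, grouped and numbered by title) was amplified with the SMARTer Ultra Low kit and sequenced in paired ends. The authors aligned reads to mm10 with STAR, used the RefSeq annotation and DESeq2, and deposited RPKM values per transcript, rounded to 1 decimal. Versions, the RPKM program and the treatment of reads with several matches are not given in the sources used here. No counts were used, so depth and counting error are unknown, and an abundant transcript lowers all others of its library.

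The 17241 transcript entries gave 12623 genes, each with its most abundant transcript (11 members had several). Symbols turned into dates (24 entries) were restored. RPKM replaced counts, so limma 3.58.1 (R 4.3.3) was run on log2(RPKM + 1) with an intensity trend and age as the only term, over the 12458 genes that reached 1 RPKM in any library. Ratios of paralogs were compared with an exact permutation test in scipy 1.17.1. Transcripts of GENCODE vM21 were aligned locally with Biopython 1.88. The limma script was tested on simulated data.

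Named genes were the 5 most and 5 least abundant members, the members with the largest changes past an adjusted p of 0.05, paralog pairs, role lists, ribosomal proteins outside the name rule and, from other lists, genes also past the fold threshold of the study, at most 4 a list, while marker genes at 0 were named after their values were seen. Values of some single genes that the rule names are not reported here. The members and lists were chosen with earlier results of these data known. Rps12l2 was set apart from the structural members after the table was seen, and Rps4l was found under an older symbol. The sources used here name no pairing of the libraries by replicate number. Over all genes tested, deviations of libraries with the same number correlated at 0.03, -0.11 and -0.02. Whether libraries of the same number shared a batch was not tested. Alternatives changed the pseudocount, filter, scaling, transcript choice, trend and block, and left out each library.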

Additional observations from a re-analysis of the deposited data

How the results depend on the processing

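The median log2 fold change of the members stayed below 0 under every alternative except one that made the family median equal in all libraries, where it was 0.01 by construction. It also lay below the median of all genes, except without infant replicate 3, where it was -0.03 against -0.07 for all genes. Members lower in the young adult numbered 2 (limma, adjusted p under 0.05). They numbered 7 after quantile normalization, 6 with totals made equal without the globins, 0 with equal family medians, 1 without the intensity trend and 0 to 10 when 1 library was left out. Of all genes 16.2% passed in that direction in the main fit. The share was 9.46% after quantile normalization, 20.2% with totals equal without the globins, 8.47% with equal family medians and 16.3% without the trend. The count of members was 10 without infant replicate 2, 2 without infant replicate 1, 1 without infant replicate 3 or either of young adult replicates 1 and 3, and 0 when young adult replicate 2 was left out. The share of all genes was 6.94, 21.5 and 7% without infant replicates 1, 2 and 3. It was 6.01, 5.6 and 10% without young adult replicates 1, 2 and 3. The single member that was higher was Rps19bp1, and the count was 0 with a pseudocount of 5, without the filter, with totals equal without globins, with equal family medians and without the trend, and 0 to 1 when 1 library was left out. Rps19bp1 passed in none of those 6 fits, and the 1 member was Rps4y2, without young adult replicate 1. Lower by more than the fold threshold of the study there was 1 member, Rpl22l1, with totals equal without globins, and 0 to 1 when 1 library was left out (1 without infant replicate 1, infant replicate 2 or young adult replicate 1). The difference in the share of the library was -0.23 percentage points, and -0.68 with the globins left out of the total. With the replicate number as a block, 3 members were lower (Rpl17, Rpl22l1 and Rps7), beside 12.1% of all genes, and 0 higher. No source used here says that the replicate numbers pair the libraries. Quantile normalization moved the median of all genes from -0.07 to 0.04 and that of the members to -0.27. Equal family medians moved the median of all genes to 0.12. Of the comparisons of single genes with their alternatives, 129 kept their direction and their side of the threshold, 21 lost the threshold and 3 gained it. Only Rpl22l1, Rpl17 and Rps19bp1, the members that passed in the main fit, could lose it. The 129 include comparisons of genes that had not passed it in the main fit. With 3 libraries of each age, rounding to 0.1 RPKM and unknown depth, small shifts of single members are not resolved.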

Other observations

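The mitochondrial ribosomal proteins, which build the ribosome inside mitochondria from nuclear genes, were read by the same kind of name rule after the values of the cytosolic family had been seen. Of 76 genes tested, 17 rose in the young adult and 0 fell (limma, adjusted p under 0.05), against 9.26% and 16.2% of all genes. Past the fold threshold of the study there were 0 in either direction, against 11.4% of all genes. At an unadjusted p under 0.05 by limma 28 were higher and 1 lower, against 15% and 25.4% of all genes. The median log2 fold change was 0.19, against -0.07 over all genes, and 60 of the 76 were above 0, against 5163 of 12458 genes. Mrps28 stood at 16.6, 18.4 and 19.0 RPKM in infant replicates 1, 2 and 3 and at 28.7, 33.3 and 32.3 RPKM in young adult replicates 1, 2 and 3 (log2 fold change 0.77, limma adjusted p = 0.00312). Mrps18b stood at 8.0, 11.3 and 10.2 RPKM and at 16.3, 16.1 and 16.1 RPKM in the same order (log2 fold change 0.68, limma adjusted p = 0.0101). In both genes all young adult libraries lay above all infant libraries, and infant replicate 3 did not stand out. The difference between the 2 families of ribosomal proteins was not tested.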
